A study of Mus musculus with 9 samples.

Results

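The Hox genes of the 4 mouse clusters encode homeodomain transcription factors. They were taken as every entry of the deposited count table whose symbol is Hox, a cluster letter from a to d and a number, with antisense and opposite-strand transcripts left out. This gave 39 genes of 43472 in the table, 11 of HoxA, 10 of HoxB, 9 of HoxC and 9 of HoxD. The rule reads symbols alone, but the family itself was chosen by its read counts over these 9 libraries, so its levels and differences are given as a description. Where members are counted as called by a fit over all genes, the count describes the values that prompted the choice, and no p-value is given and nothing is read from it. RNA was sequenced from C57BL/6J mouse tissue in 3 groups of 3 libraries. They were immature cartilage with immature chondrocytes (ImC), mature cartilage with mature chondrocytes (MatC) and bone with osteoblasts (Bone). The labels give no treatment or genetic change in any group, and no anatomical site, stage, age or sex. They also do not say whether libraries of a group were taken from separate animals, and p-values therefore measure only the spread between these libraries, which may be technical.

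Hox genes record position in the embryo. Within a cluster the genes lie in 1 orientation and are numbered by paralog group, low numbers at the 3′ end and high numbers at the 5′ end. Low-numbered genes are used from the hindbrain and neck backwards and high-numbered genes in the lumbar, sacral and tail regions. In the limb, HoxA and HoxD genes of the high-numbered groups pattern the skeleton from shoulder and hip to digits. Most of the face skeleton derives from neural crest that carries no Hox expression. Skeletal cells keep such regional Hox expression after patterning has ended, and the proteins bind DNA together with Pbx, Meis and Pknox cofactors.

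HoxA occupies chr6:52155590-52260880 on the reverse strand (GRCm38, GENCODE M21), HoxB chr11:96194316-96368256, HoxC chr15:102921103-103036852 and HoxD chr2:74668310-74765142, the last 3 on the forward strand. The 250 bases before the RefSeq transcription start (GRCm38.p6) are shown for 4 genes that carry much of the description below. These are Hoxd8, which kept reads in every Bone library, Hoxd4, which had the lowest MatC level relative to ImC among the genes tested, and Hoxa5 and Hoxa9, which had 2 reads each in Bone. Capitals mark CCAAT boxes and TATA boxes on either strand. The windows lie at chr2:74704365-74704614 (Hoxd8, forward strand), chr2:74721728-74721977 (Hoxd4, forward strand), chr6:52204588-52204837 (Hoxa5, reverse strand) and chr6:52227371-52227620 (Hoxa9, reverse strand). Each is printed 5′ to 3′ on the strand of its gene.
Hoxd8: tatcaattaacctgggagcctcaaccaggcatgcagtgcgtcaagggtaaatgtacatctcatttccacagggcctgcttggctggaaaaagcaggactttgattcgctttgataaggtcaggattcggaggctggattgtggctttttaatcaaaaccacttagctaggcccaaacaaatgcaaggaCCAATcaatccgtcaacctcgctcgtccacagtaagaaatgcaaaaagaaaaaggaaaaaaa
Hoxd4: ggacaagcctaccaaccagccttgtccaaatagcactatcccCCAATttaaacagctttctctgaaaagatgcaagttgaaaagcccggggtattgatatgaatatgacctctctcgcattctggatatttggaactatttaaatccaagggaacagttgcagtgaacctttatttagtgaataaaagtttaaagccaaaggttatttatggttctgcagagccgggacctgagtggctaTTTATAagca
Hoxa5: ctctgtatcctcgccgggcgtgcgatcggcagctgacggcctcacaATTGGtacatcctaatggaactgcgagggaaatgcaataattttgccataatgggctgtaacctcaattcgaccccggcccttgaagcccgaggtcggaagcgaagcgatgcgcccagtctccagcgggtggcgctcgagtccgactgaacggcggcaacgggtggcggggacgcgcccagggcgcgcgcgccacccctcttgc
Hoxa9: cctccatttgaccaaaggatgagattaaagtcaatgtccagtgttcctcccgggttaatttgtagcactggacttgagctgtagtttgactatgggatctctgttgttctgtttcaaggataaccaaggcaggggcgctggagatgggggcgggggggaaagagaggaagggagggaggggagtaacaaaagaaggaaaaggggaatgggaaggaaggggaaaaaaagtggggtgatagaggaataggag

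The Hoxd8 window held a CCAAT box that began 62 bases before the start and the Hoxd4 window held one 208 bases before it. The Hoxd4 window also held TTTATA, the reverse of a TATA box, 10 bases before the start, and the Hoxa5 window held ATTGG, the reverse of a CCAAT box, 204 bases before it. No letters of the motifs searched were in the Hoxa9 window. GC content was 44.4% for Hoxd8, 40.4% for Hoxd4, 63.6% for Hoxa5 and 49.6% for Hoxa9. The table of promoters matched 22 of the 39 genes with 24 windows, since a gene can have several starts. CCAAT was found on either strand in 14 of these 24 windows (58.3%), against 33.8% of 32851 windows of the same length over all genes. TATAAA was in 4 of 24 (16.7%) against 12.4%, and TGATNNAT, a site bound by Pbx and Hox proteins together, in 4 of 24 (16.7%) against 7.68%. No motif searched contains another, both strands were read, and a match describes the sequence and shows no binding.

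Library totals ran from 7913684 to 23159547 reads. Mitochondrially encoded genes took 32.0% to 55.0% of the reads in ImC, 33.7% to 82.3% in MatC and 7.24% to 8.91% in Bone, so the depth left for nuclear genes differed. MatC replicate 3 stood apart with 14940 genes with a read, against 17535 to 19584 in the other libraries. In it 3 reads came to 0.849 counts per 1000000 reads (CPM, scaled by trimmed mean of M values), against 0.149 to 0.257 CPM elsewhere. The tissue labels were checked on marker lists, as the summed CPM of a list. The 6 chondrocyte markers summed to 12204 to 15953 in ImC, 7631 to 17335 in MatC and 344 to 716 in Bone, and the 6 osteoblast markers to 153 to 377, 814 to 14422 and 38208 to 43717. The 3 hypertrophic chondrocyte markers summed to at most 1.75 in ImC, 969.6 to 5057 in MatC and 24.8 to 43.9 in Bone. Markers of other cells had reads in every group. Erythroid markers (6) reached 1424 in ImC replicate 3 against 9.75 and 20.9 in the other ImC libraries, 874 to 3496 in MatC and 6434 to 9209.9 in Bone. Osteoclast markers (6) summed to 5.46 to 8.69, 32.5 to 563 and 469 to 1033, with Dcstamp and Calcr at 0 reads in ImC. Macrophage and leukocyte markers (6) summed to 2.67 to 5.06, 5.37 to 50.4 and 27.9 to 70.7, with C1qa and C1qb at 0 reads in ImC. In these bulk samples fewer cells of a type and less RNA per cell cannot be told apart.

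Hox genes were measured well in both cartilages and hardly at all in Bone. The 3 ImC libraries held 4178, 10922 and 5653 reads from the 39 genes, the MatC libraries 3484, 2670 and 781, and the Bone libraries 45, 25 and 88. Summed levels were 348.1, 542.1 and 402.6 CPM in ImC (mean 430.9 ± 100.1, SD, n = 3), 264.1, 188.2 and 220.9 CPM in MatC (224.4 ± 38.0) and 2.44, 2.14 and 4.95 CPM in Bone (3.18 ± 1.55). The lowest ImC library was above the highest MatC library, and each cartilage library was above every Bone library. With scaling by library size alone the cartilages overlapped, since MatC replicate 1 stood at 339.2 CPM and ImC replicate 3 at 321.1, and Bone stayed at 7.49 CPM or less. Without MatC replicate 3 the MatC mean was 226.1 CPM. Of the 39 genes 29, 30 and 25 had a read in the ImC libraries, 28, 30 and 25 in MatC and 8, 5 and 15 in Bone. Over the 3 libraries of a group, 30 genes had more than 3 reads in ImC, 31 in MatC and 5 in Bone, and 21 had none in Bone. Hoxb13, Hoxc10, Hoxc11 and Hoxc12 had no read in any library. A level of 5 CPM or more was reached by 10 genes in ImC, 7 in MatC and 0 in Bone. Only 14 of the 39 genes passed the filter on low counts and entered the tests; the other 25 are described by their reads.

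**Figure D1:**
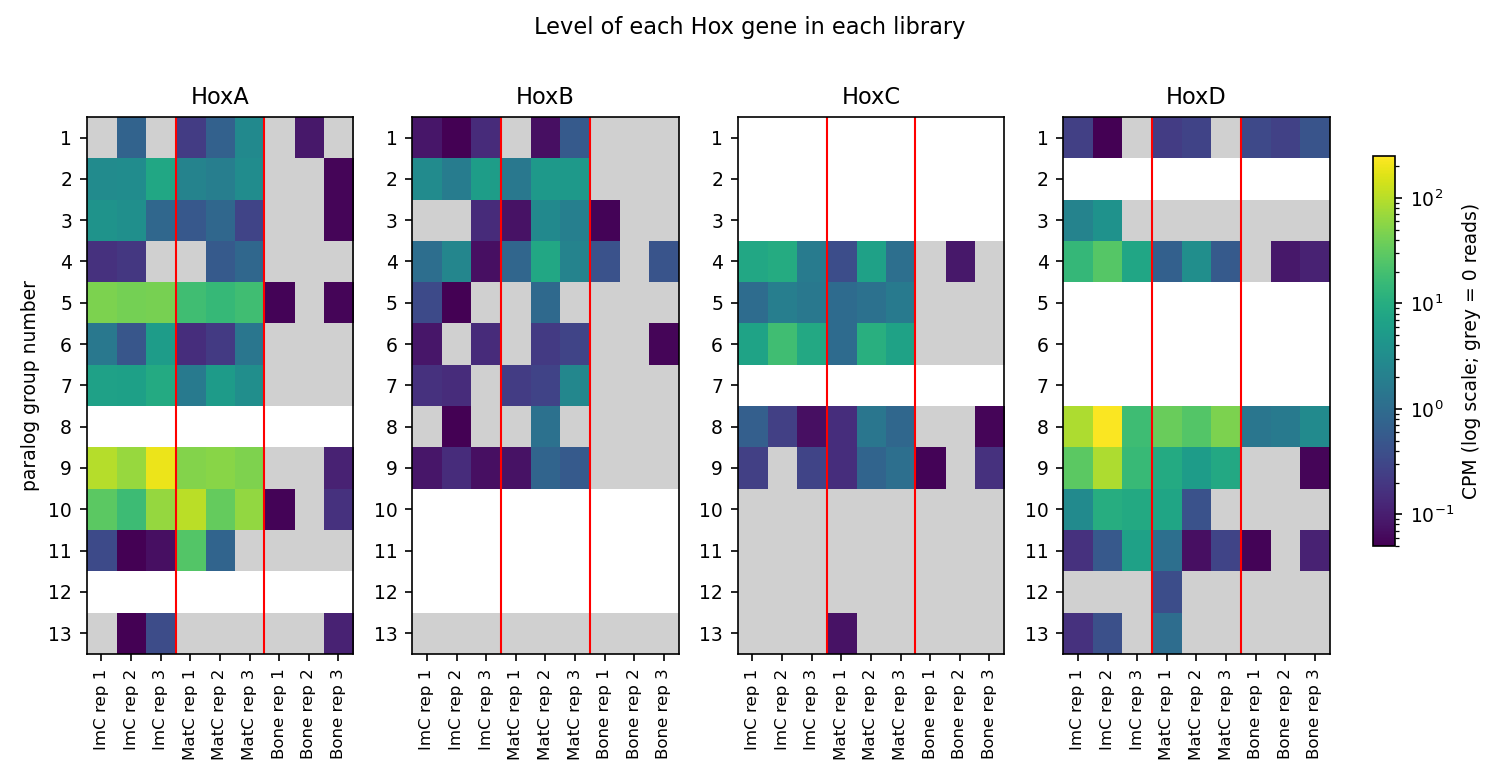
Level of each Hox gene in each library, 1 panel per cluster, with paralog group on the vertical axis, the 9 libraries on the horizontal axis and CPM on a log colour scale. Grey is 0 reads and white marks a paralog group that the cluster lacks. Hoxa5, Hoxa9, Hoxa10 and Hoxd8 are bright in every cartilage library, and Hoxd4 and Hoxd9 are brighter in ImC than in MatC. Hoxd8 is the brightest gene in all 3 Bone libraries.

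In HoxA, Hoxa5, Hoxa9 and Hoxa10 carried most of the signal, and Hoxa6 stood at 5.63 CPM or less in every library. Hoxa5, which patterns the neck and upper thorax, stood at 46.9, 42.3 and 44.1 CPM in ImC, 18.3, 14.9 and 18.4 in MatC and 0.0541, 0 and 0.0563 in Bone. Its ImC libraries were the most alike of the abundant members, and the 3 groups did not overlap. Hoxa9, a group 9 gene that acts in the upper limb and the trunk, stood at 97.7, 66.2 and 193.8 CPM in ImC, 51.8, 54.3 and 47.8 in MatC and 0, 0 and 0.113 in Bone. Hoxa10, which acts in the lumbar vertebrae and the thigh, stood at 29.0, 17.0 and 66.0 CPM in ImC, 102.7, 33.0 and 62.8 in MatC and 0.0541, 0 and 0.169 in Bone. The cartilage groups overlapped for Hoxa10 and not for Hoxa9, whose lowest ImC library lay above its highest MatC library. Hoxa7, a gene of the thoracic region, stood at 6.50, 6.30 and 9.12 CPM in ImC and 1.59, 5.29 and 3.39 in MatC and had no read in Bone. Hoxa2, the gene that sets the fate of the second pharyngeal arch, stood at 3.08, 3.18 and 8.05 CPM in ImC, 2.27, 1.90 and 3.11 in MatC and 0, 0 and 0.0563 in Bone. Within ImC, replicate 3 was the highest library for Hoxa2, Hoxa7, Hoxa9 and Hoxa10.

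Hoxa11, which patterns the forearm and lower leg, was a feature of 1 library. It stood at 25.2 CPM (333 reads) in MatC replicate 1, 0.775 CPM in MatC replicate 2, 0 in MatC replicate 3 and at most 0.333 CPM in ImC, with no read in Bone. It did not pass the filter on low counts, so it was not tested. The same library was the highest in MatC for the 5′ genes of HoxD. Hoxd10 stood at 7.50 CPM in MatC replicate 1 against 0.423 and 0, and Hoxd11 at 1.14 against 0.0705 and 0.283. Hoxd12 stood at 0.379 (5 reads) against 0 and 0, and Hoxd13, a gene of the hand and foot, at 1.06 (14 reads) against 0 and 0. In MatC replicate 3, 3 reads came to 0.849 CPM, so its values for Hoxd11, Hoxd12 and Hoxd13 say little. In ImC, Hoxd11 was in turn a feature of replicate 3, at 6.62 CPM against 0.167 and 0.546. MatC replicate 1 also had the highest sum over 6 perichondrium, tendon and fibroblast markers, 1299 CPM against 513 and 554, and over 6 neural markers, 67.6 against 19.7 and 18.1, and their part in these values was not tested.

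In HoxD, Hoxd8, Hoxd9 and Hoxd4 were the main members. Hoxd8, a trunk gene with limb expression, stood at 87.7, 238.8 and 17.7 CPM in ImC, 35.7, 26.0 and 45.8 in MatC and 1.41, 1.63 and 2.93 in Bone. The cartilage groups overlapped, since ImC replicate 3 lay under every MatC library, and Bone lay under both. Hoxd9, a partner of Hoxa9 in the upper limb, stood at 29.0, 87.3 and 15.5 CPM in ImC, 9.10, 5.57 and 8.49 in MatC and 0, 0 and 0.0563 in Bone. Hoxd4, which patterns the neck vertebrae, stood at 14.4, 26.8 and 7.83 CPM in ImC, 0.682, 3.38 and 0.566 in MatC and 0, 0.0856 and 0.113 in Bone. For Hoxd4 and Hoxd9 every ImC library was above every MatC library. Hoxd10, a gene of the limb and lumbosacral region, stood at 2.92, 10.1 and 8.69 CPM in ImC and had no read in Bone. Hoxd3 had 27 and 78 reads in ImC replicates 1 and 2 and 0 in all other libraries. Its exons overlap those of Hoxd4 on the same strand and of 2 opposite-strand genes. Reads in the bases shared with Hoxd4 cannot be told apart by strand. The kit does not mark strand, so those shared with the opposite-strand genes cannot be told apart either. The HoxD total within ImC ran 136.9, 367.9 and 56.3 CPM, a wider spread than for HoxA (189.2, 139.9 and 328.0). The perichondrium, tendon and fibroblast sum ran 399.9, 809.9 and 32.8 CPM over the same 3 libraries, with Tnmd at 0 reads in ImC, and its part in the HoxD spread was not tested.

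HoxC and HoxB were lower. HoxC summed to 17.2, 29.6 and 12.0 CPM in ImC, 2.73, 20.7 and 11.6 in MatC and at most 0.225 in Bone, and HoxB to 4.83, 4.72 and 6.34 in ImC, 2.73, 19.4 and 13.3 in MatC and at most 0.507 in Bone. Hoxc6, a thoracic gene, stood at 7.08, 18.1 and 8.40 CPM in ImC and 0.985, 10.8 and 6.79 in MatC, with no read in Bone. Hoxc4, a gene of the neck and upper thorax, stood at 8.17, 9.28 and 1.71 CPM in ImC, 0.379, 6.49 and 1.13 in MatC and 0, 0.0856 and 0 in Bone. Both overlapped between the cartilages, with MatC replicate 2 the highest MatC library. Hoxc5 lay between 0.985 and 1.94 CPM in all 6 cartilage libraries. Hoxb2, a hindbrain gene, lay between 1.52 and 5.77 CPM in all 6 and had no read in Bone. Hoxb4, which also acts in blood stem cells, stood at 1.08, 2.48 and 0.0712 CPM in ImC, 0.834, 8.25 and 2.26 in MatC and 0.433, 0 and 0.450 in Bone. MatC replicate 3 was the highest MatC library for Hoxb1, Hoxb6, Hoxc5 and Hoxc9. It was also the highest for Hoxb2, at 5.09 CPM against 4.86 in replicate 2, and Hoxb7, at 2.55 against 0.282. MatC replicate 2 was the highest for Hoxb3, at 2.82 CPM, Hoxb4, Hoxb5, at 0.916, Hoxb8, at 1.20, Hoxb9 and Hoxc8. In that library the endothelial markers (7) summed to 198 CPM against 95.2 and 11.3 in the other MatC libraries, the macrophage and leukocyte markers to 50.4 against 10.3 and 5.37, and the muscle markers (6) to 194.7 against 18.9 and 40.2. The part of these cells in the HoxB and HoxC values was not tested.

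**Figure D2:**
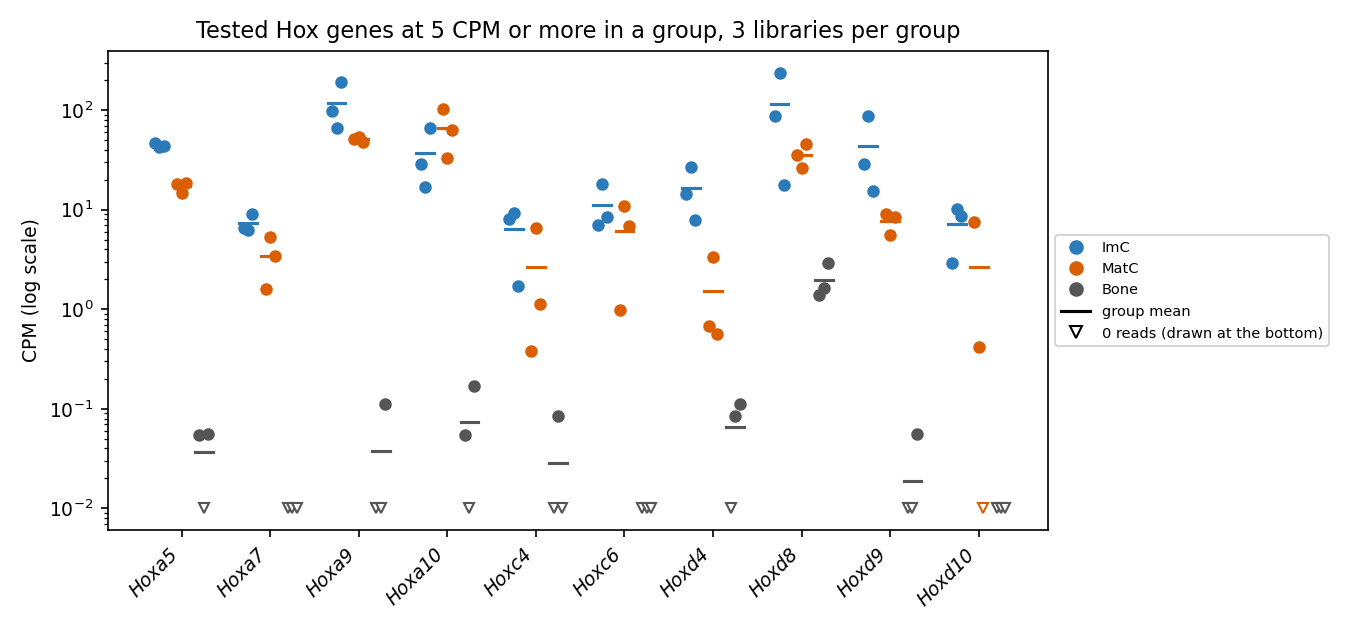
Level of the 10 tested Hox genes that reached 5 CPM in a group, on a log axis in CPM. Each point is 1 library, bars are means over 3 libraries, and open triangles at the bottom are libraries with 0 reads. Bone points lie at or under 0.169 CPM except for Hoxd8, which lies at 1.41 to 2.93.

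Levels of different genes were set side by side as CPM per kilobase of annotated exon. In ImC, Hoxd8 was at 41.8, Hoxa5 at 23.7, Hoxa9 at 21.4, Hoxd9 at 20.6 and Hoxa10 at 11.4 CPM per kilobase. In MatC the order was Hoxa10 at 20.2, Hoxd8 at 13.1, Hoxa9 at 9.20 and Hoxa5 at 9.15, with Hoxa11 at 3.79 and Hoxd9 at 3.61. The library ranges of Hoxd8, Hoxa9 and Hoxd9 in ImC and of Hoxa10 in MatC were wide enough to cover their neighbours, so this order describes means. The Hoxa11 mean rests mostly on MatC replicate 1, at 25.2 CPM against 0.775 and 0. In Bone, Hoxd8 was at 0.724 CPM per kilobase, followed by Hoxd1 at 0.185 and Hoxb4 at 0.115. Amplification from the poly(A) tail concentrates reads near the 3′ end, and the Hoxa9 length of 5.58 kilobases includes long isoforms, so the scale is approximate.

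Mature against immature cartilage gave lower means in MatC for most tested members. The fitted log2 fold changes were lower in MatC for 11 of 14, and edgeR's quasi-likelihood test over 14257 genes called 3 lower and 0 higher at an adjusted p under 0.05. Over all genes tested 2.29% were called lower and 5.41% higher. With scaling by library size alone the share of called genes that were higher moved from 70.2% to 53.4%. The 3 were Hoxa5, at a log2 fold change of −1.37 ± 0.29 (SE), Hoxd4, at −3.30 ± 0.79, and Hoxd9, at −2.52 ± 0.61. Hoxa9 was at −1.22 ± 0.45, Hoxd8 at −1.69 ± 0.71 and Hoxa7 at −1.09 ± 0.56, and they were not called. Hoxc4 (−1.21 ± 0.98), Hoxc6 (−0.86 ± 0.78), Hoxc5 (−0.24 ± 0.66), Hoxd10 (−1.37 ± 1.19) and Hoxa2 (−0.995 ± 0.63) were nearer to their error. The 3 members with a higher fitted MatC level, none of them called, were Hoxa10 at 0.83 ± 0.56, Hoxb4 at 1.64 ± 1.17 and Hoxb2 at 0.10 ± 0.70. The sign of Hoxb2 turned over the alternatives run, from −0.62 to 0.66, and that of Hoxc5 in 1 of them, at 0.02. The median over the 14 was −1.15, beside 0.03 over all genes. Scaling by library size alone moved these to −1.70 and −0.51, and left 1 member called. Every MatC library lay under every ImC library for 5 of the 14 (Hoxa5, Hoxa7, Hoxa9, Hoxd4 and Hoxd9), beside 12.5% of all genes tested. Hoxd3, with 105 reads in ImC and 0 in MatC, was at least 23.4-fold lower (the floor is 3 reads summed over a group), on the reads of 2 ImC libraries, and at least 10.7-fold lower without ImC replicate 2. Hoxb3 went the other way with 48 reads in MatC and 2 in ImC, a ratio of 35.9 (95% counting interval 9.40 to 305). Of these, 40 MatC reads were in replicate 2 and both ImC reads in replicate 3, and without MatC replicate 2 the ratio was 11.0 (2.20 to 106.8).

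The count of 3 rests on single libraries. Without ImC replicate 1 it was 0, without ImC replicate 3 it was 5, and without any 1 of ImC replicate 2, the 3 MatC libraries and Bone replicates 2 and 3 it was 1. Without Bone replicate 1 it was 2. At an unadjusted p under 0.05, 0 members were higher and 5 lower. DESeq2 called 1 higher (Hoxb3) and 3 lower, and edgeR with no filter called 2 higher (Hoxa11 and Hoxb3) and 5 lower. Over the 35 members with any read, the median was 0.84 in DESeq2 and 0.69 without the filter, so its sign depended on whether the sparse members were counted. The call of Hoxa5 was lost when ImC replicate 1 (−1.34) or MatC replicate 2 (−1.27) was left out. The call of Hoxd4 was lost when Bone replicate 2 or 3, ImC replicate 1 or 2, or replicate 1 or 3 of MatC was left out, at −2.75 to −3.43, and that of Hoxd9 without any 1 library other than ImC replicate 3, at −1.53 to −2.75. All 3 also ended when the 2 cartilages were fitted without Bone.

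The balance between neighbours in HoxA also differed between the cartilages. Hoxa10 gave 0.297, 0.256 and 0.341 reads per read of Hoxa9 in ImC and 1.98, 0.608 and 1.31 in MatC. Every MatC library was above every ImC library in this ratio, which needs no scaling between libraries. The pair was chosen after its values were seen, and the ratio is given without a test.

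Bone was compared with each cartilage, and both comparisons share the Bone libraries. Against MatC, 12 of the 14 tested members were called lower and 0 higher by the same edgeR test, where 4.69% of all genes were called lower and 1.36% higher. Against ImC, 13 were called lower and 0 higher, where 16.8% of all genes were called lower and 14.3% higher. Members with few or no Bone reads passed the filter through their cartilage reads, so these counts could hardly have come out higher in Bone, and they are no evidence about the family. With scaling by library size alone the share of called genes that were higher moved from 22.5% to 40.1% against MatC and from 46.0% to 59.0% against ImC. For the counts of 0, no member was higher at an unadjusted p under 0.05, in DESeq2 or without the filter, in either comparison. Hoxb4 was not called in either comparison, at −3.60 ± 1.30 against MatC and −1.96 ± 1.25 against ImC, and Hoxd10 was not called against MatC. Every Bone library lay under every library of the cartilage for 13 of 14 against MatC, beside 17.7% of all genes tested, and for 13 of 14 against ImC, beside 28.8%. The median fitted log2 fold change over the 14 was −8.15 against MatC and −8.64 against ImC, beside −0.03 and −0.02 over all genes. With members at 0 to 3 Bone reads set to their bound or read ratio, these medians were −6.21 and −7.71. Scaling by library size alone gave −7.35 and −8.30, beside 0.95 and 0.46 over all genes. Over the 35 members with any read the medians were nearer to 0, at −5.23 against MatC and −3.95 against ImC in DESeq2 and −5.57 and −4.48 in edgeR without the filter.

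Fold sizes in Bone are set by very few reads. Hoxa9 had 2 Bone reads, a level 2711-fold under ImC (95% counting interval 750.2 to 22395) and 1258-fold under MatC (348 to 10394). Hoxa5, also with 2 reads, was 1055-fold under ImC (292 to 8717) and 401-fold under MatC (110.3 to 3317). Hoxd9 had 1 read and was 2411-fold under ImC (432 to 95255), and Hoxd4 had 3 and was 285-fold under ImC (97.0 to 1383). These intervals cover counting error alone. Without ImC replicate 2 the folds against ImC were 1039 for Hoxd9 and 173.5 for Hoxd4, and without Bone replicate 3 Hoxa9 and Hoxd9 had no Bone read. Hoxa10 had 4 Bone reads, at a log2 fold change of −8.68 ± 0.88 against ImC and −9.50 ± 0.90 against MatC. Members with 0 Bone reads were at least 115-fold (Hoxa7), 196-fold (Hoxc6), 124-fold (Hoxd10), 52.9-fold (Hoxb2) and 24.9-fold (Hoxc5) lower than in ImC. Hoxa11 was at least 178-fold lower than in MatC, mostly on the reads of MatC replicate 1, and at least 9.91-fold lower without it. Hoxd8 differed from the rest in keeping 97 reads, 26, 19 and 52 per library, and was at −5.84 ± 0.86 against ImC and −4.15 ± 0.81 against MatC. Its call against MatC ended without any 1 of the Bone libraries and with scaling by library size alone, at −3.09 to −4.54. The calls of Hoxc4, Hoxc5 and Hoxd4 against MatC also ended with that scaling and without any 1 Bone library, at −3.38 to −8.29. Those of Hoxc4 and Hoxd4 further ended without MatC replicate 2 or ImC replicate 1, and that of Hoxc4 without MatC replicate 3. Hoxd1 was the 1 member whose Bone libraries all lay above its ImC libraries, at 0.325, 0.257 and 0.450 CPM against 0.250, 0.0496 and 0, on 17 and 4 reads, beside 30.1% of all genes tested. Bone replicate 2 and ImC replicate 1, the closest of these libraries, had 3 reads each, and MatC replicate 2, at 0.282 CPM, lay above Bone replicate 2. Hoxd1 was not tested, so the share of tested genes is not a like one, and it was singled out after its values were seen.

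Of the 10 Hox genes with a mean of 5 CPM or more in ImC, 8 had at most 3 reads over the 3 Bone libraries. Over all genes at that level in ImC, 42 of 9215 (0.456%) did. Of the 7 Hox genes at that level in MatC 5 did, beside 36 of 9479 genes (0.380%). The family was chosen by such values, so these counts are a description. Chondrocyte markers were lower in Bone as well, with 6 of 6 called lower in both comparisons. Their median log2 fold change was −9.47 against MatC and −8.68 against ImC, beside −8.15 and −8.64 for the tested Hox genes. None of these markers was at 0 reads in Bone. Their summed level in ImC was 12204 CPM or more, against 542.1 CPM or less for the Hox genes. The part of the share of chondrocytes in the Hox difference was not tested.

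The make-up of the Hox reads differed between tissues and, within ImC, between libraries. HoxA gave 54.4% (Wilson 95% interval 52.8 to 55.9), 25.8% (24.998 to 26.6) and 81.5% (80.4 to 82.5) of the Hox reads of the ImC libraries. In MatC it gave 76.8% (75.4 to 78.2), 59.7% (57.9 to 61.6) and 63.8% (60.3 to 67.1). The ImC libraries thus lay on both sides of all 3 MatC libraries. In Bone, HoxD gave 73.3% (59.0 to 84.0), 92.0% (75.0 to 97.8) and 73.9% (63.8 to 81.9), above every cartilage library, where it gave 13.99% to 67.9%. The intervals of Bone replicates 1 and 3, on 45 and 88 reads, included the highest cartilage value. Hoxd8 made up 97 of the 158 Bone Hox reads.

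By paralog group, genes 9 to 13 gave 45.9%, 33.5% and 72.4% of the Hox reads in ImC, 75.5%, 50.8% and 54.8% in MatC and 6.67% (2.29 to 17.9), 0% (up to 13.3) and 14.8% (8.84 to 23.7) in Bone. Genes 1 to 4 gave 2.55% to 16.0% in cartilage and 33.3% (21.4 to 47.9), 24.0% (11.5 to 43.4) and 22.7% (15.2 to 32.5) in Bone. The Bone shares lay outside the cartilage range on both measures, on 45, 25 and 88 reads, but for genes 1 to 4 the intervals of Bone replicates 2 and 3 reached into it. In CPM, genes 9 to 13 stood at ImC 210.9 ± 70.5, MatC 138.7 ± 54.0 and Bone 0.298 ± 0.384, and the cartilage libraries overlapped. Genes 5 to 8 stood at 182.4 ± 114.0, 67.2 ± 12.3 and 2.06 ± 0.9002, and genes 1 to 4 at 37.6 ± 13.7, 18.5 ± 11.7 and 0.817 ± 0.306.

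**Figure D3:**
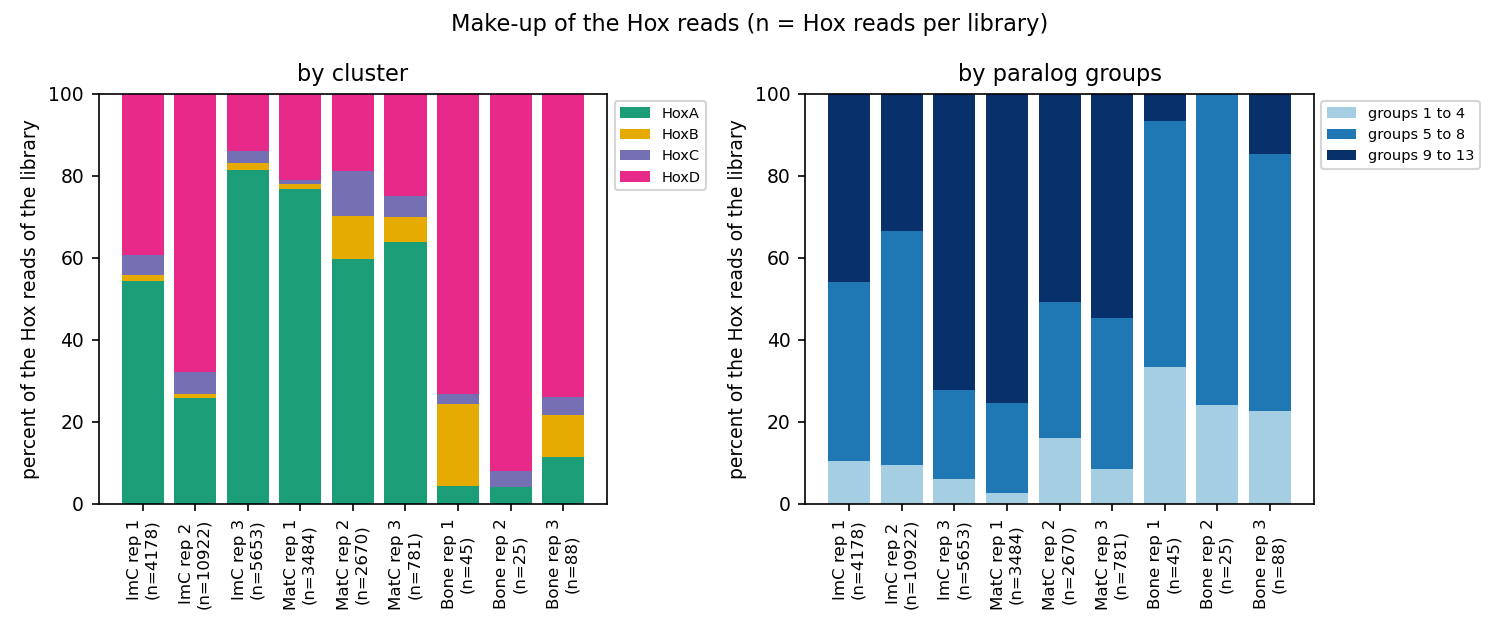
Make-up of the Hox reads of each library in percent, by cluster (left) and by paralog groups (right), with the number of Hox reads under each bar. HoxA and HoxD together hold most reads in every library, and the Bone bars, on 25 to 88 reads, hold the smallest shares of groups 9 to 13.

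Genes of the Hox cofactors had reads in all 3 tissues. Of 8 tested, edgeR's quasi-likelihood test with Benjamini-Hochberg adjustment called 1 higher and 3 lower in Bone against ImC, where 14.3% of all genes were called higher and 16.8% lower. Meis3 stood at 0.250, 0.645 and 2.14 CPM in ImC, 1.06, 3.24 and 1.13 in MatC and 6.23, 7.79 and 5.46 in Bone, and rose in Bone against ImC (log2 fold change 2.67 ± 0.76, adjusted p = 0.0240). Meis1, a cofactor of the proximal limb, stood at 15.3, 18.0 and 18.9 CPM in ImC, 1.52, 7.05 and 6.22 in MatC and 1.14, 1.46 and 1.13 in Bone, and fell in Bone against ImC (−3.81 ± 0.56, adjusted p = 0.00132). Meis2 (−4.06 ± 0.99, adjusted p = 0.0128) and Pknox1 (−1.13 ± 0.27, adjusted p = 0.0113) fell too. Meis3 thus moved against Meis1 and Meis2, and Pbx2 and Pbx3, which encode direct Hox partners, stood at 25.2 CPM or more in each Bone library. The Meis1 call held in every alternative run, while that of Pknox1 ended with scaling by library size alone. The calls of Meis2 and Pknox1 ended without Bone replicate 2 (−3.91 and −1.04), that of Pknox1 without Bone replicate 3 (−1.12) and that of Meis3 without any 1 Bone library or ImC replicate 1 or 2 (2.27 to 2.80).

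In MatC against ImC and in Bone against MatC, 0 cofactor genes were called in edgeR. At an unadjusted p under 0.05, 3 were lower in MatC, and 1 was higher and 2 lower in Bone against MatC. DESeq2 called Meis1 lower in MatC, and Meis1 and Meis2 lower in Bone against MatC. Meis1 in MatC was at −1.84 ± 0.51 (adjusted p = 0.0563 in edgeR).

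**Figure D4:**
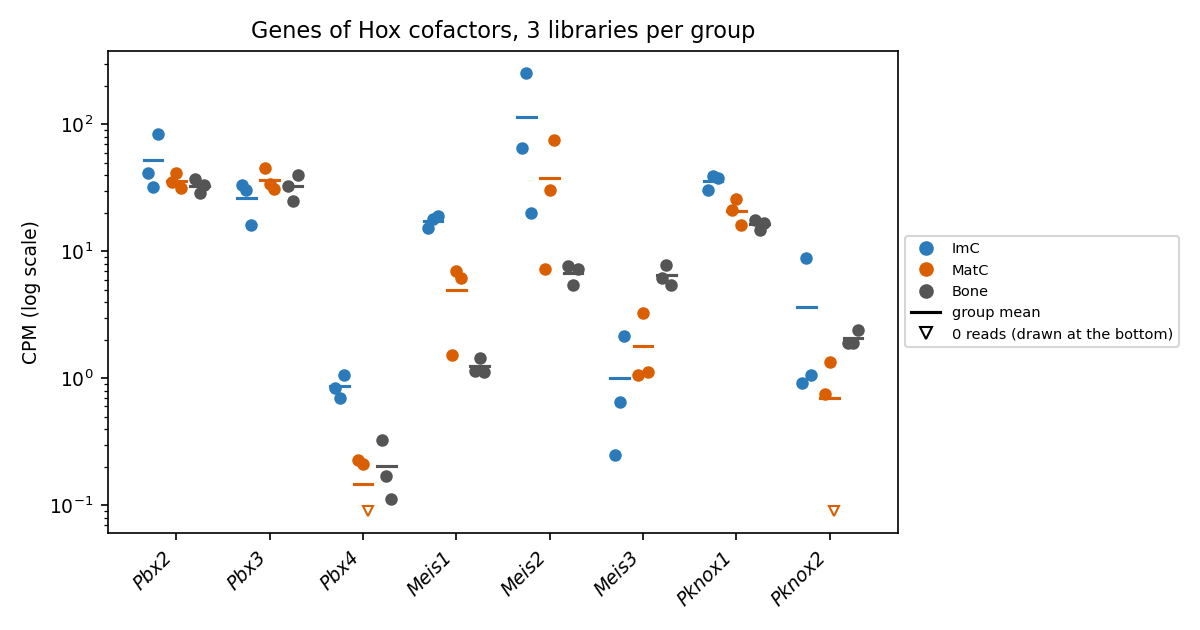
Level of 8 genes of Hox cofactors on a log axis in CPM, with 1 point per library, bars for means over 3 libraries and open triangles at the bottom for 0 reads. Meis3 lies highest in Bone, and Meis1 lies lowest in Bone at 1.13 to 1.46.

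Polycomb proteins keep Hox clusters silent and trithorax proteins keep them active. The list of 23 genes also held Ctcf, an insulator protein of neither group, and 22 of the 23 were tested. In MatC against ImC, 3 were called lower, Cbx6 (−1.94 ± 0.34, adjusted p = 0.0121), Ctcf (−1.30 ± 0.32, adjusted p = 0.0387) and Ash1l (−0.96 ± 0.25, adjusted p = 0.0468), and 0 higher, with 1 higher at an unadjusted p under 0.05 and 0 in DESeq2. Over all genes edgeR called 2.29% lower and 5.41% higher. In Bone against ImC, 7 were called lower and 0 higher in edgeR, with 2 higher at an unadjusted p under 0.05 and 1 (Bmi1) in DESeq2. Over all genes edgeR called 16.8% lower and 14.3% higher. Cbx6, a Polycomb reader, fell (−1.97 ± 0.34, adjusted p = 0.00295), as did Kmt2a, the trithorax methyltransferase that sustains Hox expression (−2.28 ± 0.43, adjusted p = 0.00429), and Ezh2, the Polycomb methyltransferase (−1.58 ± 0.31, adjusted p = 0.00511). Members of both the silencing and the activating groups were thus among those that fell. In Bone against MatC 0 were called in either direction, with 0 higher and 2 lower at an unadjusted p under 0.05 and 0 in DESeq2. With scaling by library size alone 0 of these Bone against ImC calls were left, and without Bone replicate 2 or Bone replicate 3 there were 3. The MatC calls of Cbx6, Ctcf and Ash1l ended with that scaling too. The Ash1l call further ended without any 1 library other than ImC replicate 3 (−0.89 to −1.01) and the Ctcf call without any 1 library other than ImC replicate 2 (−0.93 to −1.45). Cbx7 was not tested, with 3 reads in ImC, 11 in MatC and 15 in Bone.

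Of 18 genes next to the clusters 13 were tested. In Bone against ImC 4 were called higher and 1 lower, where 14.3% of all genes were called higher and 16.8% lower, and no test of the difference was made. The median log2 fold change was 0.78, beside −0.02 over all genes. Snx10, beside HoxA, rose (log2 fold change 4.79 ± 1.01, adjusted p = 0.00693), Atp5g3, near HoxD, rose (1.78 ± 0.44, adjusted p = 0.0136), and so did Skap2, beside HoxA (2.76 ± 0.86, adjusted p = 0.0341). Mtx2, near HoxD, was the other gene called higher. Cbx5, beside HoxC, fell (−1.20 ± 0.25, adjusted p = 0.00625), and its call ended with scaling by library size alone, as did those of Atp5g3, Mtx2 and Skap2. The Skap2 call also ended without any 1 Bone library or ImC replicate 1 (2.47 to 3.02), as did that of Mtx2 (1.75 to 2.32), which left 3 calls each time, and the Mtx2 call further ended without MatC replicate 2 or 3. The Snx10 call held in every alternative run. Snx10 and Skap2 are also expressed in osteoclasts and macrophages, whose marker sums were higher in Bone, and their part in these 2 values was not tested. In the other comparisons 0 were called. At an unadjusted p under 0.05, 3 were higher and 1 lower in MatC against ImC and 1 higher and 1 lower in Bone against MatC, and DESeq2 called 3 and 1 higher and 0 lower. The homeobox genes at the 5′ ends of HoxA and HoxD, Evx1 and Evx2, had 2 reads, both in Bone replicate 3, and 0 reads. Skap1, Calcoco2 and Ttll6, near HoxB, had at most 9 reads in a group.

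Non-coding transcripts of the clusters were also lower in Bone. Of 11 listed there were 4 tested, and all 4 were called lower by edgeR in Bone against ImC, where 16.8% of all genes were. The 11 summed to at most 0.257 CPM in a Bone library, so the 4 passed the filter through their cartilage reads. They could hardly have come out higher in Bone, and their calls and adjusted p-values are given as a description. All 4 also share exon bases with Hox genes. Hoxaas2 was at least 92.7-fold lower (adjusted p = 0.000792), Hoxaas3 at least 47.0-fold lower (adjusted p = 0.0235), Hoxd3os1 fell (−6.91 ± 1.32 as log2, adjusted p = 0.00466) and Haglr fell (−5.04 ± 1.21, adjusted p = 0.0120). Against MatC edgeR called 1 of the 4, Hoxaas2, at least 21.7-fold lower in Bone (adjusted p = 0.00954), where 4.69% of all genes were called lower. All 4 had an unadjusted p under 0.05. DESeq2 called 7 of the 11 lower there and edgeR without the filter 6. In MatC against ImC 0 of 4 were called, with 0 higher and 1 lower at an unadjusted p under 0.05 and Hoxaas2 called lower by DESeq2. The Hoxaas3 call ended without any 1 Bone library or ImC replicate 1, and the other 3 held wherever they were tested. Hotair and Hottip had no read in any library, Hoxa11os, Hoxb5os, Hotairm1 and Halr1 had none in Bone and Hoxb3os had 1. Of the 39 Hox genes 16 share exon bases with another annotated gene, 10 of them with a gene on the opposite strand, and 7 of the 14 tested are among the 16. Where the partner is on the opposite strand, reads in the shared bases cannot be told apart without strand. The others of the 16 share bases only with a gene on the same strand, where strand would not help.

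Of 9 genes for factors that mark the limb all were tested, and of 9 that mark the face 7 were. In Bone against ImC, 3 limb and 2 craniofacial genes were called higher and 4 and 2 lower (14.3% and 16.8% of all genes), beside 1 limb gene higher and 1 gene of each list lower in MatC against ImC (5.41% and 2.29% of all genes). Tbx5, which specifies the forelimb, stood at 55.2, 85.6 and 115.5 CPM in ImC, 12.6, 21.9 and 3.96 in MatC and 0.0541, 0 and 0.0563 in Bone, and fell in Bone against ImC and MatC (edgeR adjusted p = 8.19e-05 and 0.000636). Its call in MatC against ImC (−2.70 ± 0.54, edgeR adjusted p = 0.0172) ended without MatC replicate 1 (−2.66), with the 2 cartilages fitted alone and with scaling by library size alone. Shox2, a factor of the upper limb, stood at 40.8 to 192.1 CPM in ImC, 92.8 to 108.1 in MatC and 8.12 to 17.5 in Bone and was called lower in Bone in both comparisons (edgeR), although the call against MatC ended without Bone replicate 1 or 2 and with scaling by library size alone. Lhx8, a factor of the jaw mesenchyme, stood at no more than 0.149 CPM in cartilage and at 34.8, 41.3 and 39.5 CPM in Bone, and rose (edgeR adjusted p = 5.83e-05 against ImC). Pitx1, a factor of the hindlimb and the first pharyngeal arch, stood at no more than 0.705 CPM in cartilage and at 16.3 to 19.1 CPM in Bone, and rose (edgeR adjusted p = 0.00163 against ImC). Tbx5 passed the filter on low counts through its cartilage reads, and Lhx8 and Pitx1 through their Bone reads. Their Bone calls could hardly have come out in the other direction. The lists were also chosen with earlier results of these data known, so these adjusted p-values are a description. Lhx6, Prrx1 and En1 (0 reads in ImC) were also called higher in Bone against ImC and Sox10, Foxd1 (2 reads in Bone), Tbx4 and Lmx1b (0 reads in Bone) lower. In MatC against ImC, Prrx1 was called higher and Barx1 lower, and in Bone against MatC, Lhx6 was called higher besides Pitx1 and Lhx8. The Barx1 call ended without any 1 library other than ImC replicate 3 (−3.85 to −6.21), and the Lhx6 and Pitx1 calls against MatC ended without any 1 Bone library. Otx2 had no read in ImC and 1 in Bone and was not tested. The labels name no anatomical site for any group, so a difference of tissue and a difference of site cannot be told apart in these Hox values.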

How the data were processed

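RNA-seq read counts per gene symbol were deposited by the authors as raw whole numbers for 3 groups of 3 libraries. The submitters' processing notes name Trimmomatic 0.30, TopHat2, Bowtie2, HTSeq, edgeR and mm10. Per the labels' protocols, RNA was amplified once and libraries came from a kit that does not mark strand. The authors' normalized table was not used here, and 0 columns were left unmapped. Members and lists were chosen with earlier results of these data known. Every Hox gene is accounted for. Those reaching 5 CPM in a group are given per library, and of other lists the 3 called genes with the smallest p and those with at most 3 reads in a group are named. Some genes of those other lists are not reported here and are left out of their counts.

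All 9 libraries entered 1 edgeR 4.0.16 quasi-likelihood fit in R 4.3.3 without covariates, after filterByExpr (minimum count 10), with TMM scaling and Benjamini-Hochberg adjustment over 14257 genes at 0.05. The script was tested on simulated data. Alternatives were DESeq2 1.42.0, other scalings and filters, mitochondrial genes left out, 2 groups fitted alone, a replicate block and each library left out. With 0 reads in a group, folds are bounds against 3 reads over the group, and with 1 to 3 reads they are ratios of levels with exact 95% intervals. Shares have Wilson 95% intervals. Intervals and floors cover counting error only, since amplified reads are not independent molecules. Promoters and gene models came from RefSeq (GRCm38.p6) and GENCODE M21.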

Additional observations from a re-analysis of the deposited data

How the results depend on the processing

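Alternatives moved the Hox counts of MatC against ImC most. The 3 members called lower became 1 with scaling by library size alone, 5 without the filter, 0 with the 2 groups fitted alone and 5 without ImC replicate 3 and MatC replicate 3, and 0 to 5 without 1 library. The 0 called higher became 1 in DESeq2 and 2 without the filter. The 12 lower in Bone against MatC became 21 in DESeq2 and 19 without the filter, where more genes were tested, and 8 to 13 without 1 library. The 13 lower in Bone against ImC ran from 14 to 17 without 1 library. Over all genes, the 1099 calls of MatC against ImC became 2225 in DESeq2, 358 with library size alone, 1690 without the filter, 205 with the 2 groups alone, 1908 without that pair of libraries and 355 to 1240 without 1 library. The 863 of Bone against MatC became 1927, 297 and 1504 under the first 3 of these, 1605 without the pair and 167 to 1702 without 1 library. The 4432 of Bone against ImC became 2073 with library size alone and 2343 to 5408 without 1 library. The summed Hox level with mitochondrial genes left out became 785.2 CPM (ImC), 404.0 (MatC) and 5.78 (Bone), and 176.0 in MatC and 4.78 in Bone with library size alone. Leaving out 1 library gave 375.4 to 472.4, 204.6 to 242.5 and 2.29 to 3.70 CPM. Except where a change in the genes tested is named, the cause was not tested. Deviations of same-numbered libraries from their group means had correlations of −0.13 to 0.24, and those of differently numbered libraries −0.40 to 0.36. Between the cartilages the same-numbered values were 0.23, −0.04 and 0.24. With 3 libraries per group these values cannot settle whether the numbers pair the libraries. With the replicate block 2 members were called lower between the cartilages, 12 against MatC and 13 against ImC in Bone, and 725, 814 and 4088 genes in all. No called value reversed. Bone levels rest on 45, 25 and 88 Hox reads, and MatC replicate 3 has the least depth for nuclear genes.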
